A study of Mus musculus with 6 samples.

Results

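The transcripts of 9 nuclear genes for enzymes of the citric acid cycle were examined in mouse gastrocnemius muscle. They were taken by symbol from the 49315 genes of the count table, and each of the 9 symbols matched 1 gene. The genes were Cs, Idh2, Idh3a, Idh3b, Idh3g, Ogdh, Suclg1, Fh1 and Mdh2. All mice were male C57BL6J, received an AAV9 vector in the gastrocnemius at 5 months of age and were harvested 5 months later. The vector was AAV9-HSA-CAAHR in 3 muscles (replicates 31, 34 and 36) and AAV9-HSA-GFP in 3 (replicates 42, 43 and 46), called CAAHR and GFP muscles here. CAAHR is a mouse aryl hydrocarbon receptor without its ligand-binding domain, which is active with no ligand, and GFP is green fluorescent protein. In both vectors the human skeletal actin (HSA) promoter drives expression in muscle fibres, so both groups carried a virus and neither was uninjected muscle. The comparison asked whether transcripts of the cycle differed when AHR was active in the fibres.

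The citric acid cycle runs in the mitochondrial matrix, where it oxidises the acetyl group of acetyl-CoA to carbon dioxide and passes electrons to the respiratory chain as reduced cofactors. In skeletal muscle it is the common final route for carbon from glucose, fatty acids and amino acids. Slow and other oxidative fibres are rich in mitochondria and in enzymes of the cycle, and the activity of citrate synthase is widely used as a marker of mitochondrial content.

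Libraries held between 43432994 and 58825752 counts, and the 9 transcripts together made up 0.357% to 0.458% of counts in CAAHR muscles and 0.330% to 0.378% in GFP muscles. The delivered gene was checked first, and Ahr was at 16.7 ± 6.44 CPM (counts scaled for library size and composition with TMM factors; SD, n = 3) in CAAHR and 2.29 ± 0.370 CPM in GFP muscles. By library it was at 9.97, 22.8 and 17.3 CPM in CAAHR replicates 31, 34 and 36. Cyp1a1, a gene of the AHR pathway, was at 1231, 1680 and 1517 CPM in the same libraries and 6.79 ± 0.943 CPM in GFP muscles. CAAHR replicate 34 was thus the highest library for both genes. The 6 markers of muscle fibres were detected in every library. In CAAHR muscles 4 of them were lower and 2 higher, and 2 passed the edgeR test, beside 7.60% of all tested genes. Those that passed were both lower: Acta1, skeletal actin, at 0.598-fold and Ckm, muscle creatine kinase, at 0.604-fold (edgeR adjusted p 0.00895 and 0.0251). Des (0.715-fold), Myh4 (0.806-fold), Ttn (1.02-fold) and Mb (2.04-fold) did not pass. Of 15847 genes tested, 481 were higher and 724 lower in CAAHR muscles at an adjusted p under 0.05 (edgeR quasi-likelihood test, Benjamini-Hochberg over all tested genes), or 876 and 600 when libraries were scaled by their totals only. Because these are bulk samples, fewer cells of a type and less RNA per cell cannot be told apart. Whether libraries came from separate mice is not stated in the labels, so p-values measure only the spread between these samples.

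Promoter windows of 300 bases (250 before to 50 after a start site) were read from RefSeq for GRCm38.p6, and 8 of the 9 genes had at least 1. They are shown for Ogdh, the 1 of the 9 that passed the test, for Idh2, whose fitted difference was the largest of the 9, for Suclg1, which held as many matches as Ogdh and did not pass the test, and for Slc25a1, the citrate carrier gene described further on. Each is on the strand of its gene, 5′ to 3′, and capitals mark GCGTG or its reverse complement CACGC, the core of the element bound by AHR with its partner ARNT. The windows are chr11:6291356-6291655 on the plus strand for Ogdh, chr7:80115301-80115600 on the minus strand for Idh2, chr6:73248255-73248554 on the plus strand for Suclg1 and chr16:17928170-17928469 on the minus strand for Slc25a1.
Ogdh: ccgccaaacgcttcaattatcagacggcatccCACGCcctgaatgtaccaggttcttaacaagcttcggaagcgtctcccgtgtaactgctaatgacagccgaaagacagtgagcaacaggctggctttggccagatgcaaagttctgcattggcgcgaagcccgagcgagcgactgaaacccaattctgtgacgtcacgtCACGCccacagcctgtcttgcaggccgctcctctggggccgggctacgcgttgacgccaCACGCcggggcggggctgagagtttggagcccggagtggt
Idh2: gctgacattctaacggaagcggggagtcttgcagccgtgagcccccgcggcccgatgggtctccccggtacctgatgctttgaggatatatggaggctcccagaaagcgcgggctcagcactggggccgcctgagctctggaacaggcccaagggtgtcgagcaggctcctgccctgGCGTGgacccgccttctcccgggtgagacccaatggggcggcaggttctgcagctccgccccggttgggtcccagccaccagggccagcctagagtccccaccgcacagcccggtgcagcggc
Suclg1: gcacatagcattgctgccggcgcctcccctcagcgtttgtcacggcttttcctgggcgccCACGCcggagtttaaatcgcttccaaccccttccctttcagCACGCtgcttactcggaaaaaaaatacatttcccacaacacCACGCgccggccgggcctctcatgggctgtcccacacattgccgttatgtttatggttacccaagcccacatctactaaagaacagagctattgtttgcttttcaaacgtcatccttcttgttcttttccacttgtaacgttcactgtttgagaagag
Slc25a1: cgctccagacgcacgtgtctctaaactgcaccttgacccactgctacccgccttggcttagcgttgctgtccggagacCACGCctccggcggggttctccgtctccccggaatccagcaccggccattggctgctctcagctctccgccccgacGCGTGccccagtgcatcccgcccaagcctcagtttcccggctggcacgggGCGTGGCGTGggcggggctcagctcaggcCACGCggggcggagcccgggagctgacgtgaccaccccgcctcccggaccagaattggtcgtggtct

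The core was matched 3 times in this Ogdh window, once in Idh2, 3 times in Suclg1 and 5 times in Slc25a1. It was also present in the windows of Idh3g, Fh1 and Mdh2 and not in those of Cs and Idh3b. Of all 32851 windows of this length, 32.4% held at least 1 match on either strand, so the letters were common. Counted by gene, 35.2% had a match in at least 1 window. The share was higher among those of the 9 genes that had a window, where only Cs and Idh3b lacked a match. This difference was not tested. The share of windows with several matches was not counted. Ogdh had 6 windows, of which 4 held a match. The window at chr11:6291920-6292219 held 2 matches outside the window shown, so the gene had more matches than Suclg1. The core AAGGTCA of the element bound by estrogen-related receptors, searched on both strands, was found in 4.72% of all windows and, among the 9 genes, in 1 other window of Ogdh. Matches are a description of these letters and are not binding sites.

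Of the 9 transcripts 1, Ogdh, passed the test, and it was higher in CAAHR muscles. The share of all tested genes that passed was 7.60% in either direction, and 3.04% were higher. The median log2 fold change of the 9 was -0.06, beside 0.01 for all tested genes, with 4 values above 0 and 5 below (7 and 2 when scaled by library size only). At an unadjusted p under 0.05 there were 2 of the 9, Ogdh and Idh2, where 23.9% of all tested genes reached that level.

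**Figure D1:**
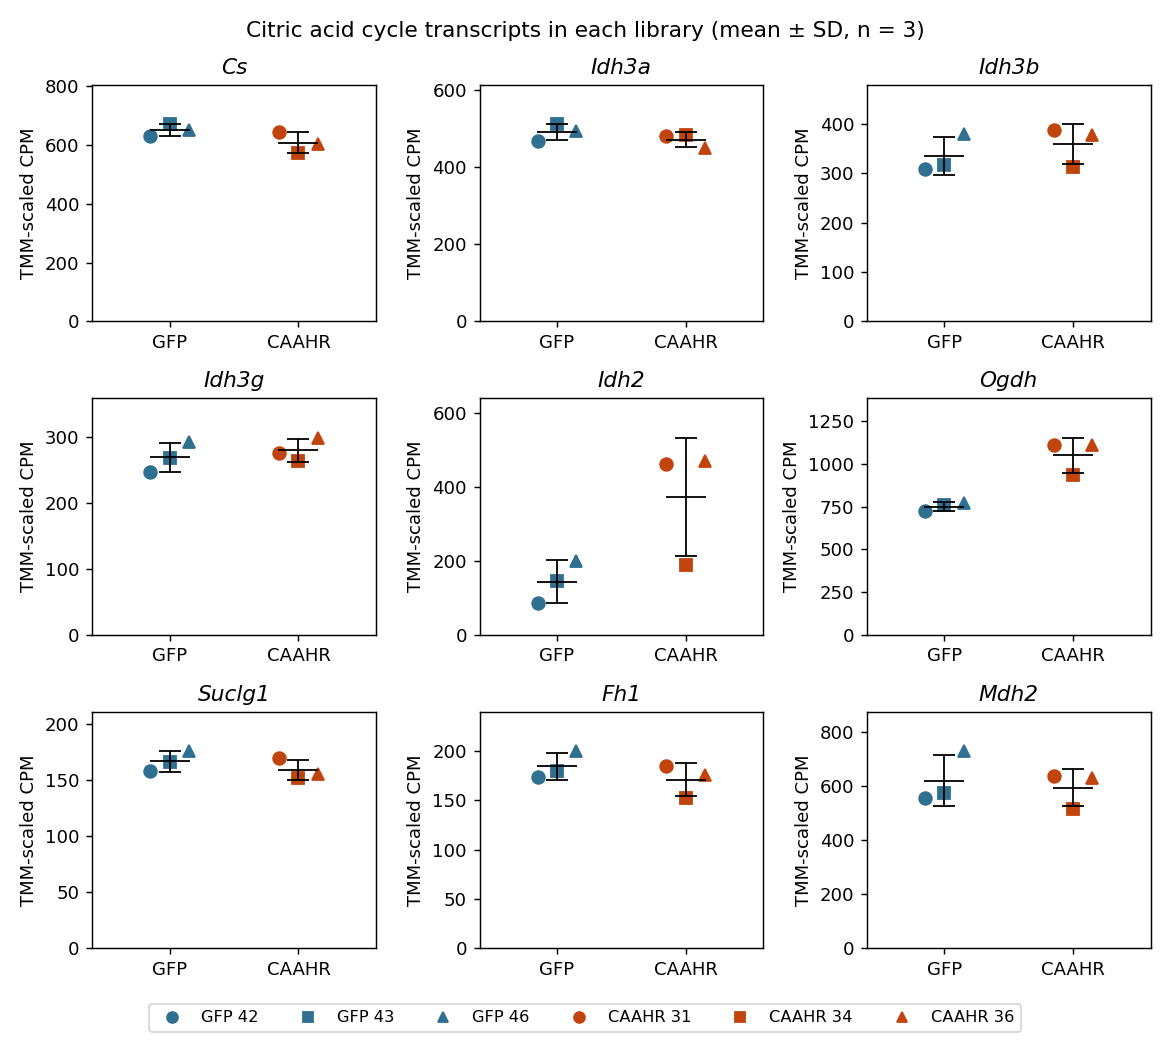
TMM-scaled CPM of the 9 transcripts (vertical axes, each from 0) in the 3 GFP and 3 CAAHR libraries, with points for libraries and bars for the mean ± SD. The 3 CAAHR libraries lay above all GFP libraries for Ogdh, 2 of 3 did for Idh2, and the groups overlapped for the other 7.

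Ogdh encodes the subunit of the oxoglutarate dehydrogenase complex that decarboxylates alpha-ketoglutarate, a step that commits carbon to the second part of the cycle. The gene (ENSMUSG00000020456) lies on chromosome 11, 6291633 to 6356642, plus strand, in GRCm38. Its transcript was at 1113, 933 and 1109 CPM in CAAHR replicates 31, 34 and 36, compared with 723, 759 and 771 CPM in GFP replicates 42, 43 and 46. All 3 CAAHR libraries were above all 3 GFP libraries, with replicate 34 the lowest of the CAAHR group. The groups did not overlap in this way for 1 of the 9 transcripts and for 29.9% of all tested genes, 15.0% with the CAAHR libraries above. The log2 fold change was 0.49 ± 0.12 (SE), or 1.40-fold with a 95% interval from 1.17 to 1.68 (edgeR quasi-likelihood test, adjusted p 0.0337).

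The call for Ogdh was close to the threshold. It was lost without CAAHR replicate 31 or 36 and without GFP replicate 42, 43 or 46 (edgeR adjusted p 0.0994, 0.138, 0.113, 0.111 and 0.0929 in that order), and was kept without CAAHR replicate 34 (adjusted p 0.0101). It was also lost with upper quartile scaling, where the log2 fold change was 0.41 (edgeR adjusted p 0.0566), and the log2 fold change stayed between 0.44 and 0.56 in the 6 fits that left out 1 library.

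The other subunits of the same complex gave values near 0. Dlst, which carries the succinyl-transferring core, was at 248, 189 and 224 CPM in CAAHR replicates 31, 34 and 36 and 193, 222 and 227 CPM in GFP replicates 42, 43 and 46. Its log2 fold change was 0.04, with a 95% interval from -0.24 to 0.32. Dld, the dehydrogenase that the complex shares with pyruvate dehydrogenase, had a log2 fold change of 0.06 with an interval from -0.19 to 0.31. Ratios within a library do not depend on scaling between libraries, and these were chosen after the values were seen. The log2 ratio of Ogdh to Dlst counts was 2.17, 2.30 and 2.31 in CAAHR replicates 31, 34 and 36 and 1.90, 1.78 and 1.76 in GFP replicates 42, 43 and 46. The groups did not overlap, and the mean difference of 0.45 corresponds to a 1.36-fold higher ratio. For Ogdh to Dld the difference was 0.43, and for Ogdh to Cs it was 0.58, again without overlap. Each reached p = 0.1 in an exact two-sided permutation test, which is the smallest value 3 against 3 libraries can give (adjusted p 0.1 over 4 ratios).

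**Figure D2:**
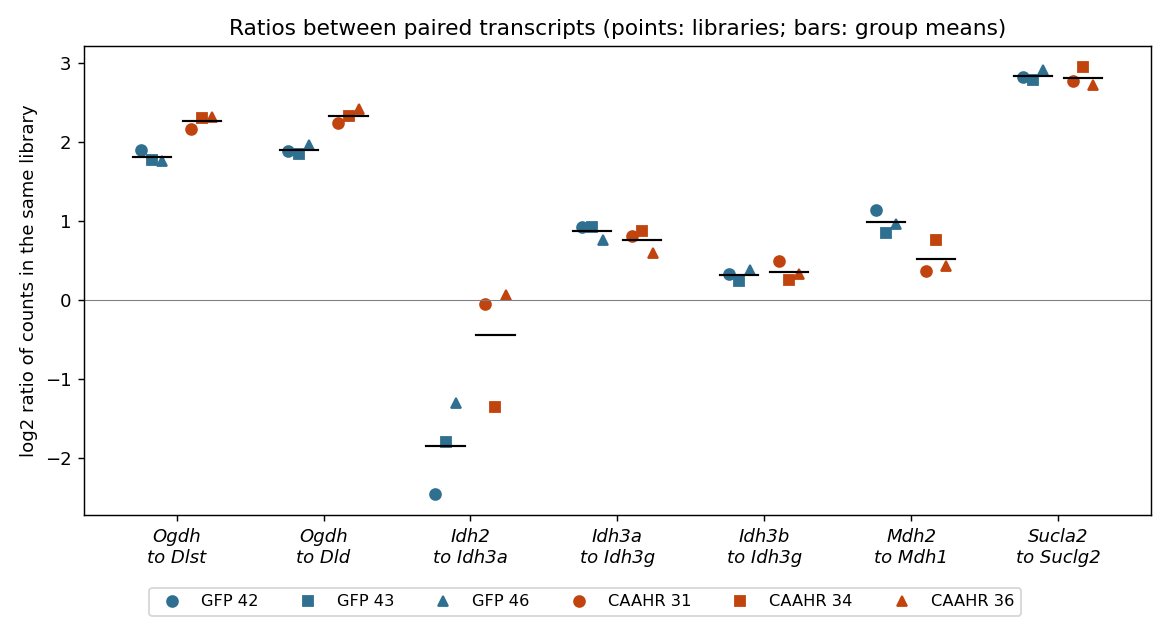
Log2 ratios of counts of paired transcripts in the same library (vertical axis), with points for the 3 GFP and 3 CAAHR libraries and bars for group means. The ratio of Ogdh to Dlst and that of Ogdh to Dld were higher in every CAAHR library than in any GFP library, whereas the Idh3 ratios and that of Sucla2 to Suclg2 overlapped.

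Idh2 encodes the mitochondrial isocitrate dehydrogenase that reduces NADP, a source of NADPH in the matrix. The gene (ENSMUSG00000030541) lies on chromosome 7, 80094846 to 80115392, minus strand. Its transcript was at 463, 189 and 470.4 CPM in CAAHR replicates 31, 34 and 36, compared with 85.3, 146 and 200.01 CPM in GFP replicates 42, 43 and 46. CAAHR replicates 31 and 36 were above every GFP library, and CAAHR replicate 34 was below GFP replicate 46, so the groups overlapped. The log2 fold change of 1.38 ± 0.47 (SE) did not pass the test (edgeR quasi-likelihood test, adjusted p 0.16), and its 95% interval ran from 1.14-fold to 5.94-fold. Without CAAHR replicate 34 the log2 fold change was 1.69 and passed (edgeR adjusted p 0.0479), and DESeq2 called the gene with all libraries (adjusted p 0.0447).

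Idh2 also varied most within groups. Its level ranged 2.48-fold among CAAHR and 2.34-fold among GFP libraries. For the other 8 transcripts the range was 1.08-fold to 1.24-fold within CAAHR and 1.06-fold to 1.31-fold within GFP muscles. The log2 ratio of Idh2 to Idh3a was -0.06, -1.35 and 0.07 in CAAHR replicates 31, 34 and 36, and -2.45, -1.80 and -1.31 in GFP replicates 42, 43 and 46. The mean difference was 1.41, and the groups overlapped through CAAHR replicate 34 and GFP replicate 46 (exact permutation test, p = 0.2, adjusted p 0.5 over 5 ratios).

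Markers of slow fibres moved with both transcripts. The summed level of 9 slow-fibre markers, including the slow myosin heavy chain Myh7, was 2818, 661 and 2546 CPM in CAAHR replicates 31, 34 and 36. In GFP replicates 42, 43 and 46 it was 235, 343 and 474 CPM. CAAHR replicate 34 was the lowest of its group on these markers and on Idh2 and Ogdh alike, and GFP replicate 42 was the lowest of all 6 libraries on each. All 9 markers had a log2 fold change above 0 (median 2.36), with 8 at an unadjusted p under 0.05 and 0 at an adjusted p under 0.05 in edgeR. Of all tested genes 23.9% and 7.60% reached these levels. When the mean log2 level of these markers was added to the edgeR fit, the log2 fold change of Ogdh was 0.21 ± 0.16 (adjusted p 0.55) and that of Idh2 was -0.36 ± 0.23 (adjusted p 0.446). The 7 fast glycolytic fibre markers had log2 fold changes below 0 (median -0.45), although Atp2a1 at -0.01 was near 0. The groups did not overlap for 4 of the 7, beside 29.9% of all tested genes. The edgeR test was passed by 2, beside 7.60% of all tested genes. These were Tnnt3 (0.622-fold) and Tnni2 (0.673-fold), which encode fast troponin subunits. The slow-fibre marker level is largely aligned with the groups, so fibre content and vector cannot be told apart in these 6 libraries.

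Markers of other cell types were read in the same libraries. The summed level of 10 immune markers was 31.6 to 42.99 CPM in CAAHR and 157 to 473 CPM in GFP muscles. The immunoglobulin gene Ighm held most of the sum in GFP muscles, at 121, 392 and 253 CPM in replicates 42, 43 and 46. In CAAHR replicates 31, 34 and 36 it was at 17.8, 15.6 and 7.82 CPM. All 10 markers were below 0 in log2 fold change, with Cd3e at -0.42 the nearest to 0. The edgeR test was passed by 4, beside 7.60% of all tested genes. In the study, selected immune genes measured by quantitative PCR were not lower in CAAHR muscles than in muscle given no virus. The study reads this as a local immune response to the GFP vector. The summed level of 6 adipocyte markers was 86.3 to 139 CPM against 108 to 229 CPM, and the ranges overlapped, with Fabp4 holding most of the sum at 104 and 106 CPM on average. All 6 were nonetheless below 0 in log2 fold change (median -2.04), and their mean log2 level did not overlap between groups. Singly, 3 of the 6 did not overlap, beside 29.9% of all tested genes. The edgeR test was passed by 2, Plin1 (0.146-fold) and Cfd (0.121-fold), beside 7.60% of all tested genes. The summed level of 5 endothelial markers was 167 to 231 CPM against 167 to 210.1 CPM. None of these markers was at 0 in any library. Their part in the results for cycle transcripts was not tested.

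**Figure D3:**
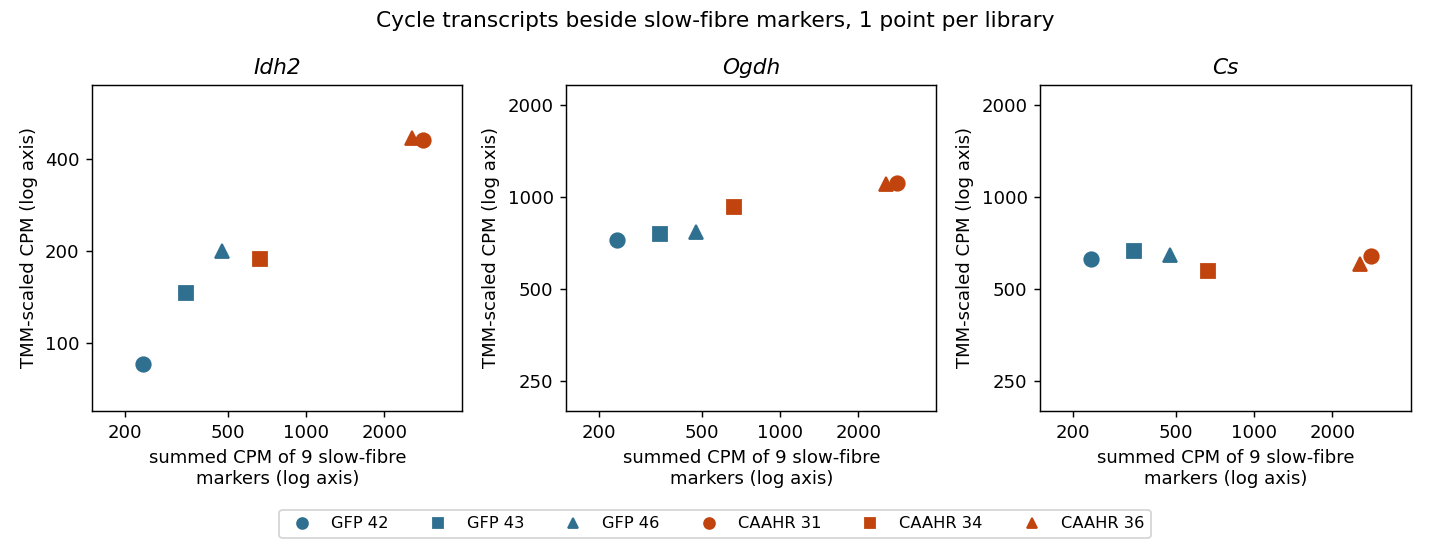
TMM-scaled CPM of Idh2, Ogdh and Cs (vertical log axes of equal span in all panels) against the summed CPM of 9 slow-fibre markers (horizontal log axis), 1 point per library. Idh2 and Ogdh were highest in the CAAHR libraries with 2546 and 2818 CPM of slow-fibre markers, whereas Cs lay between 572 and 669 CPM in all 6 libraries.

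Cs encodes citrate synthase, which joins acetyl-CoA to oxaloacetate at the entry of the cycle. The gene (ENSMUSG00000005683) lies on chromosome 10, 128337734 to 128362479, plus strand. Its transcript was at 644, 572 and 603 CPM in CAAHR replicates 31, 34 and 36 and 629, 669 and 649 CPM in GFP replicates 42, 43 and 46. The groups overlapped, although CAAHR replicates 34 and 36 were below every GFP library. The log2 fold change was -0.10 ± 0.10, and the 95% interval ran from 0.795-fold to 1.10-fold (edgeR quasi-likelihood test, adjusted p 0.628). Csl, a citrate synthase-like gene with 92.4% identity to Cs over the aligned transcript, held 53 counts over all libraries against 194624 for Cs.

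Idh3a, Idh3b and Idh3g encode the subunits of the isocitrate dehydrogenase that reduces NAD, the form that works in the cycle. Idh3a carries the catalytic site, and the products of the other genes have regulatory roles. Idh3a (chromosome 9, 54586334 to 54604661, plus strand) was at 481, 483 and 449 CPM in CAAHR replicates 31, 34 and 36 and 468, 510.5 and 495 CPM in GFP replicates 42, 43 and 46. Idh3b (chromosome 2, 130279309 to 130284547, minus strand) was at 387, 313 and 376 CPM against 309, 317 and 379 CPM in the same order. Idh3g (chromosome X, 73778963 to 73786897, minus strand) was at 276, 264 and 299 CPM against 247, 269 and 291 CPM. The groups overlapped for all 3 genes, and none passed the test. Log2 fold changes were -0.06 ± 0.10 for Idh3a, 0.10 ± 0.13 for Idh3b and 0.06 ± 0.11 for Idh3g, and the 95% intervals of all 3 lay between 0.820-fold and 1.30-fold. The sign for Idh3g changed with upper quartile scaling (-0.02) and that for Idh3a with library size only (0.02).

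The balance of the Idh3 subunits was compared within libraries. The log2 ratio of Idh3a to Idh3g was 0.75 ± 0.15 (SD, n = 3) in CAAHR and 0.87 ± 0.09 in GFP muscles, a difference of -0.12 (exact permutation test, p = 0.3, adjusted p 0.5 over 5 ratios). That of Idh3b to Idh3g was 0.36 ± 0.12 and 0.31 ± 0.07, a difference of 0.04 (exact permutation test, p = 0.6, adjusted p 0.7). Both differences were smaller than the spread between CAAHR libraries. Idh3b shares 5 bases of exon with Nop56 on the opposite strand, 0.146% of its exon length.

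Suclg1 encodes the common subunit of succinyl-CoA ligase, which makes a nucleoside triphosphate as it releases succinate. It (ENSMUSG00000052738, chromosome 6, 73248382 to 73276911, plus strand) was at 169.6, 152 and 156 CPM in CAAHR replicates 31, 34 and 36, compared with 158, 166 and 176 CPM in GFP replicates 42, 43 and 46. The groups overlapped, and the log2 fold change was -0.07 ± 0.10 (edgeR adjusted p 0.737). Its partners decide the nucleotide: Sucla2 gives the ligase that makes ATP and Suclg2 the ligase that makes GTP. The log2 ratio of Sucla2 to Suclg2 counts was 2.81 ± 0.12 in CAAHR and 2.84 ± 0.07 in GFP muscles, so Sucla2 counts were the higher in both groups (exact permutation test of the difference, p = 0.7, adjusted p 0.7). These are counts not divided by transcript length.

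Fh1, fumarate hydratase, and Mdh2, mitochondrial malate dehydrogenase, close the cycle by remaking oxaloacetate. Fh1 (ENSMUSG00000026526, chromosome 1, 175600374 to 175625635, minus strand) was at 185, 153 and 175 CPM in CAAHR replicates 31, 34 and 36 and 174, 179.9 and 200.2 CPM in GFP replicates 42, 43 and 46. Mdh2 (ENSMUSG00000019179, chromosome 5, 135778480 to 135790398, plus strand) was at 637, 516 and 631 CPM against 557, 575 and 731 CPM. Groups overlapped for both, with CAAHR replicate 34 the lowest library each time. Log2 fold changes were -0.11 ± 0.11 for Fh1 and -0.06 ± 0.14 for Mdh2, and neither passed the test (edgeR adjusted p 0.604 and 0.839). With the slow-fibre marker level in the fit they were -0.42 and -0.50, the lowest of the 9, and still did not pass (edgeR adjusted p 0.194 and 0.193). The sign for Suclg1 and Mdh2 changed with library size only (0.02 for each), so no direction was assigned.

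Mdh1, the cytosolic malate dehydrogenase of the malate-aspartate shuttle, was set against Mdh2 in the same libraries. The log2 ratio of Mdh2 to Mdh1 was 0.37, 0.76 and 0.43 in CAAHR replicates 31, 34 and 36 and 1.14, 0.84 and 0.95 in GFP replicates 42, 43 and 46. All CAAHR values were below all GFP values, with a mean difference of -0.46 (exact permutation test, p = 0.1, the smallest possible, adjusted p 0.5 over 5 ratios). Mdh1 itself was at 422 ± 103 CPM in CAAHR and 317 ± 62.7 CPM in GFP muscles, a log2 fold change of 0.41 that did not pass (edgeR adjusted p 0.269). Mdh1 passed without CAAHR replicate 34 (0.59, edgeR adjusted p 0.0434) and without a filter on low counts (edgeR adjusted p 0.00905), and was at -0.45 with the slow-fibre marker level in the fit. The ratio gives an unequal difference of the pair and does not say which of them moved.

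The remaining 9 genes of the cycle include no call, where 7.60% of all tested genes were called. With edgeR 0 of them had an unadjusted p under 0.05, where 23.9% of all tested genes did, and with DESeq2 0 had an adjusted p under 0.05, and the log2 fold change was above 0 for 8 of 9 with a median of 0.14. That count was 5 with upper quartile scaling or without CAAHR replicate 31, 9 with library size only and 2 with the slow-fibre marker level in the fit. The 4 subunits of succinate dehydrogenase, which is also complex II of the respiratory chain, had log2 fold changes of 0.21 for Sdha, 0.36 for Sdhb, 0.20 for Sdhc and 0.06 for Sdhd. Sdha, the flavoprotein, was at 860, 757 and 848 CPM in CAAHR replicates 31, 34 and 36 and 686, 725 and 719 CPM in GFP replicates 42, 43 and 46. Its groups did not overlap, yet it did not pass (edgeR adjusted p 0.269). Log2 fold changes were 0.14 for Sucla2 and 0.17 for Suclg2, and Sucla2 was the other gene of these 9 without overlap between groups. These 2 of 9 stand beside 29.9% of all tested genes, or 15.0% with CAAHR libraries above.

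**Figure D4:**
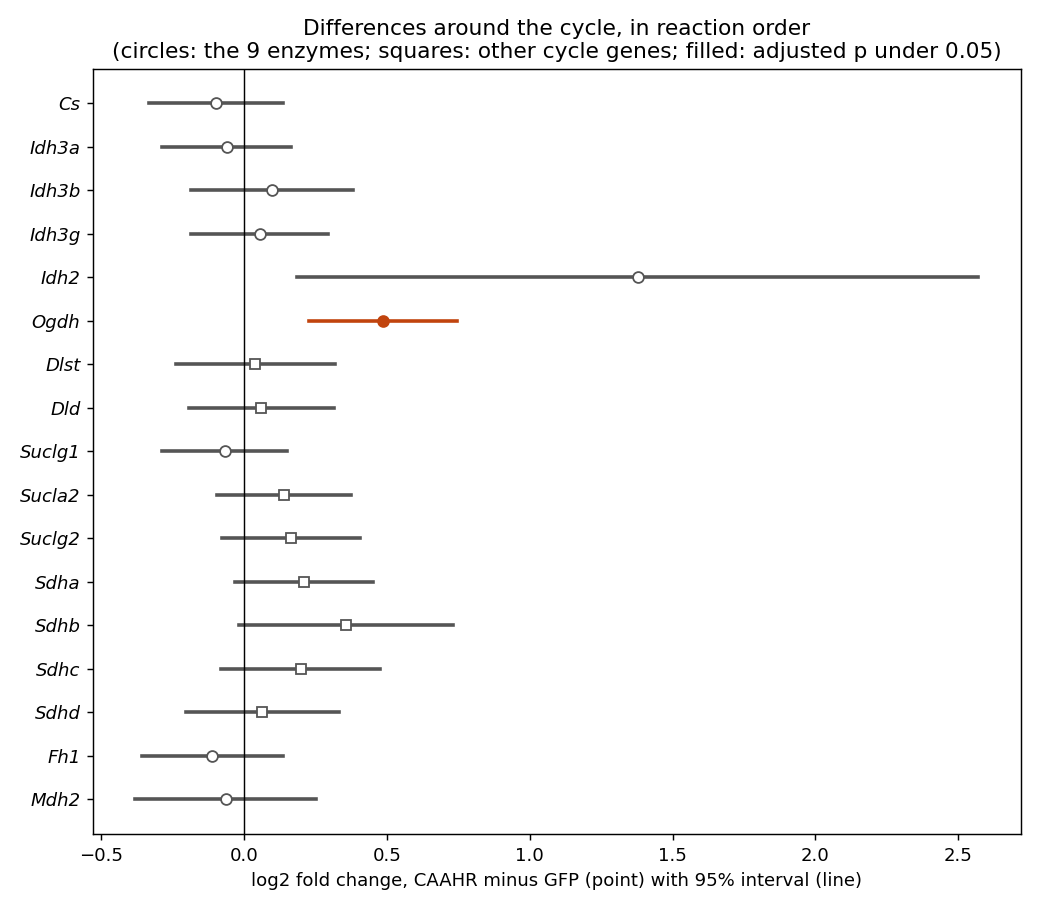
Log2 fold change, CAAHR minus GFP, with 95% interval (horizontal axis) for genes of the cycle in reaction order; filled symbols passed at an adjusted p under 0.05. Ogdh at 0.49 was the filled point, Idh2 had the widest interval, from 0.18 to 2.57, and the intervals of all other genes drawn included 0.

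Among 20 genes that feed or drain the cycle, exchange its intermediates or encode cytosolic counterparts, 1 passed, beside 7.60% of all tested genes in either direction and 4.57% in the lower direction. This was Slc25a1, the citrate carrier that exports citrate from mitochondria, and it was lower. The gene (ENSMUSG00000003528) lies on chromosome 16, 17925223 to 17928219, minus strand. It was at 2.53, 2.36 and 2.64 CPM in CAAHR replicates 31, 34 and 36 and 5.18, 3.85 and 5.66 CPM in GFP replicates 42, 43 and 46. The groups did not overlap, and the log2 fold change was -0.96 ± 0.18, or 0.512-fold with a 95% interval from 0.387 to 0.678 (edgeR quasi-likelihood test, adjusted p 0.0129). The call was lost without GFP replicate 46 (log2 fold change -0.85, edgeR adjusted p 0.0583) and with the slow-fibre marker level in the fit (-1.14, edgeR adjusted p 0.107). Immune and adipocyte markers were also lower in CAAHR muscles. Which cells held this transcript, at 2.36 to 5.66 CPM, was not tested.

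Another 4 genes of this list were at an unadjusted p under 0.05 and did not pass after adjustment in the edgeR fit of all libraries. With Slc25a1 this made 5 of 20 at that level, where 23.9% of all tested genes reached it, so the count was near the share of all genes. Malic enzymes convert malate to pyruvate, and log2 fold changes were -0.63 ± 0.20 for Me2, which is mitochondrial, and -0.36 ± 0.14 for the cytosolic Me1. Me3, also mitochondrial and not among these 4, was at 57.1 ± 3.96 CPM in CAAHR and 52.1 ± 3.51 CPM in GFP muscles. Its log2 fold change was 0.13 ± 0.10 (edgeR adjusted p 0.442). Me2 was at 2.43 ± 0.580 CPM in CAAHR and 3.76 ± 0.407 CPM in GFP muscles, and it passed with DESeq2 (adjusted p 0.0486), without a filter on low counts (edgeR adjusted p 0.0393) and without CAAHR replicate 31 (edgeR adjusted p 0.0476). Me1 passed without CAAHR replicate 34 (-0.52, edgeR adjusted p 0.0217) and was at 0.15 with the slow-fibre marker level in the fit. Aco1, the cytosolic aconitase that doubles as an iron-regulatory protein, had a log2 fold change of -0.24 ± 0.10. Nnt, the transhydrogenase that makes NADPH from NADH in mitochondria, was at 58.4, 26.5 and 55.9 CPM in CAAHR replicates 31, 34 and 36 and 17.1, 26.4 and 29.0 CPM in GFP replicates 42, 43 and 46. Its log2 fold change of 0.96 ± 0.36 did not pass (edgeR adjusted p 0.177), and CAAHR replicate 34 lay within the GFP range as for Idh2. Nnt passed without CAAHR replicate 34 (1.23, edgeR adjusted p 0.0116) and was at -0.44 with the slow-fibre marker level in the fit. C57BL6J mice are known to carry a deletion within Nnt. Idh1, the cytosolic isocitrate dehydrogenase, averaged 12.0 ± 0.271 CPM in CAAHR and 13.5 ± 0.663 CPM in GFP muscles (log2 fold change -0.18).

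**Figure D5:**
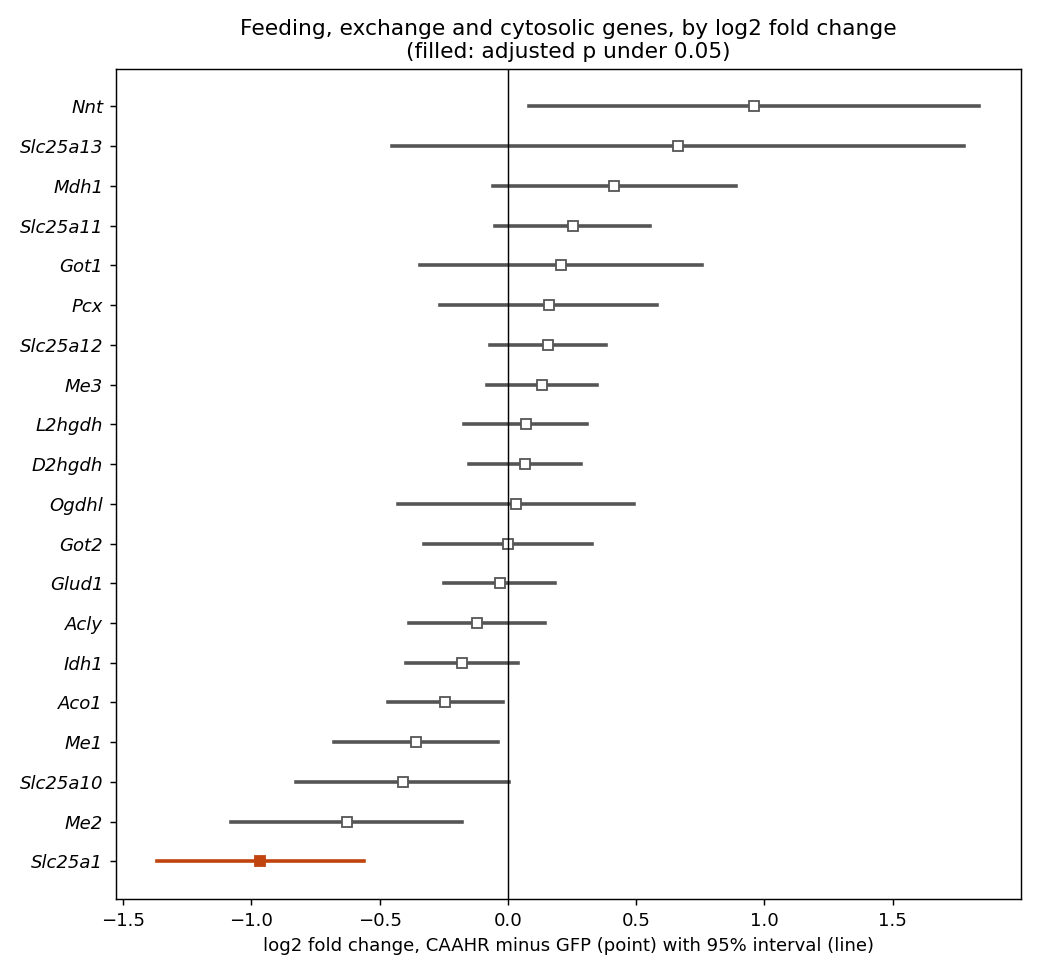
Log2 fold change, CAAHR minus GFP, with 95% interval (horizontal axis) for 20 feeding, exchange and cytosolic genes ordered by fold change; the filled symbol passed at an adjusted p under 0.05. Slc25a1 at -0.96 was the lowest and Nnt at 0.96 the highest of the 20.

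Levels were compared between the 9 transcripts only after division by exon length, as CPM per kilobase. Exon length was the union of the annotated exons of a gene, which can exceed the length of its transcripts. For Cs this union was 5779 bases, whereas the Cs transcript aligned to Csl had 2926 bases. The order of the genes below therefore holds for this length only, and division by transcript length was not tried. In GFP muscles Mdh2 was highest at 174 ± 26.9 CPM per kilobase, followed by Ogdh at 138 ± 4.55, Cs at 112 ± 3.46, Idh3g at 99.5 ± 8.31, Idh3b at 97.9 ± 11.2 and Idh3a at 96.8 ± 4.27. Idh2 at 55.6 ± 22.2, Fh1 at 54.4 ± 4.07 and Suclg1 at 36.1 ± 1.99 were lowest. Libraries of neighbours in this order overlapped among the 3 Idh3 genes and between Idh2 and Fh1. In CAAHR muscles Ogdh came first at 193 ± 18.8 CPM per kilobase, then Mdh2 at 167 ± 19.1 and Idh2 at 145 ± 61.9, and each overlapped its neighbour. The last 3 places were Idh3a at 92.9 ± 3.76, Fh1 at 50.5 ± 4.89 and Suclg1 at 34.5 ± 2.01, none overlapping its neighbour below. Idh2 stood in place 7 of 9 in GFP muscles and place 3 in CAAHR muscles, with a range from 73.0 to 182 CPM per kilobase in the latter.

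The genes whose level over the 6 libraries was most like the mean profile of the 9 transcripts were Fndc5, Ptpn3, Mdh1, Mb and Cox6b1. Pearson's r with the mean centred log2 CPM was between 0.993 and 0.998, the highest of 2330 genes at 50 CPM or more, and this is a description because all points share the 6 libraries. The profile was 0.20, -0.11 and 0.17 on the log2 scale in CAAHR replicates 31, 34 and 36 and -0.24, -0.09 and 0.06 in GFP replicates 42, 43 and 46. Most of its range came from Idh2, whose own centred values were 1.09, -0.20 and 1.12 against -1.34, -0.56 and -0.11. Likeness to Idh2 alone was not computed. CAAHR replicate 34 was below GFP replicate 43 in the profile and above it in Idh2. Fndc5, Ptpn3, Mdh1 and Cox6b1 had the order of the profile there, and Mb that of Idh2. Cs ran differently and was highest in GFP replicate 43 at 0.09. Mb, the oxygen store myoglobin, was at 2909, 964 and 2785 CPM in CAAHR replicates 31, 34 and 36 and 560.3, 869.6 and 1829 CPM in GFP replicates 42, 43 and 46, and it did not pass the test (edgeR adjusted p 0.393).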

How the data were processed

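Poly(A)-selected RNA was sequenced as paired ends by the study. Reads were trimmed with Trimmomatic 0.36, aligned to GRCm38 with STAR 2.5.2b and counted with featureCounts. The values deposited by the authors were raw counts per gene from unique reads in exons, neither normalised nor pooled. Whether counting used strand is not stated for these libraries. Positions and exon lengths came from GENCODE for GRCm38, which held 99.5% of identifiers.

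Groups were taken from sample titles. In R 4.3.3, genes were filtered with filterByExpr (15847 kept), scaled by TMM and fitted in edgeR 4.0.16 (quasi-likelihood F test, robust option), with Benjamini-Hochberg adjustment over all tested genes and a threshold of 0.05. Standard errors were derived from the F statistic. The authors' own test, DESeq2 (version 1.42.0 here), limma-voom (limma 3.58.1), other scalings and filters, a slow-fibre covariate and leaving out each library were alternatives. Ratios were compared by exact permutation tests. Genes named were the 9 enzymes, the other cycle genes (1 is counted but not reported here), the exchange genes that passed or the 4 with the smallest p, and the 5 most like the mean profile. Me3, Nnt and Idh1 of the exchange list were named beyond this rule, after their values were seen. Members and lists were chosen with earlier results of these data known. Scripts were tested on simulated data.

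Totals of at least 43432994 counts put every one of the 9 transcripts at 4118 counts or more per library, so the number of libraries limits precision more than counting error. Within groups, chi-square per degree of freedom was at least 23.7, so no library repeated another.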

Additional observations from a re-analysis of the deposited data

How the results depend on the processing

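No paired analysis was possible because replicate numbers differ between the groups. Over 135 checks of the 9 transcripts, 115 kept direction and side of the threshold, 7 lost a call (all Ogdh), 2 gained one (both Idh2) and 11 changed sign, and in no check that changed sign had the gene passed the test as reported. With upper quartile scaling 0 of the 9 were called (2 at an unadjusted p under 0.05), with Idh3g at -0.0177. With library size only the values were 0.0228 for Idh3a, 0.0161 for Suclg1 and 0.0218 for Mdh2. With the slow-fibre covariate 0 of 9 transcripts and 0 exchange genes were called, 436 of all genes were, the median of the 9 was -0.24, and Idh2 was at -0.36, Idh3b at -0.29, Idh3g at -0.15, Mdh2 at -0.50 and Fh1 at -0.42. Without a filter 2470 genes were called, with 1 other cycle gene (Sdhb) and 3 exchange genes. DESeq2 called 1919 genes, 2 of the 9 transcripts and 2 exchange genes. The cause was not tested.

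With 1 library left out, called genes numbered 530 to 1727, the lowest without CAAHR replicate 36 and the highest without CAAHR replicate 34, the 9 transcripts from 0 to 2, and exchange genes from 0 (without GFP replicate 46) to 4 (without CAAHR replicate 34), with 2 without CAAHR replicate 31. The median of the 9 ranged from -0.09 to 0.07. Idh3g ranged from -0.00252 to 0.116 and Mdh2 from -0.134 to 0.0692. The difference in ratio ranged from -0.0243 to 0.0965 for Idh3b to Idh3g and from -0.0920 to 0.0195 for Sucla2 to Suclg2, and those of the other 7 ratios kept their sign. Depth did not limit these abundant transcripts.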
